A study of Mus musculus with 25 samples.

Results

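Eccentric contraction injury of mouse muscle was examined 1 day after the injury, against uninjured muscle, with 5 arrays of the 25 in the series. The members were chosen by sample title: 2 arrays of muscle taken 1 day after contraction injury, samples 421 and 463, and 3 arrays of control muscle. The study compared 2 kinds of injury, lengthening contraction and freezing, at 4 times between 6 hours and 7 days after the injury. Each sample was the tibialis anterior, the fast muscle at the front of the shin, of a female C57BL/6J mouse 2 to 3 months old. In the contraction groups the muscle had been made to lengthen while active 150 times in the living animal. Control muscle carried no injury. The 3 freeze arrays at 1 day and the 3 contraction arrays at 6 hours serve below as a second injury and an earlier time. The freeze injury was made with a steel probe 6 mm across at dry ice temperature, held on the muscle for 10 s. The labels give no drug, transgene or genotype beyond the strain and do not say whether any of the samples came from one mouse. A p-value here weighs a difference against the spread within the 6 groups fitted together, 17 arrays in all. That spread may be partly technical.

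An eccentric contraction stretches a fibre while it pulls, which tears sarcomeres and membrane locally, and calcium then enters the fibre. Damaged and unfolded proteins draw chaperones away from heat shock factor 1, which then drives the heat shock genes, while stretch and calcium act through immediate early genes and titin-bound sensor proteins. In the hours and days that follow, neutrophils and then macrophages clear debris, and satellite cells, the stem cells of muscle, rebuild fibres.

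Fast muscle markers were high on every array. All 8 fast fibre markers, among them Acta1, Ckm, Pvalb and Myh4, stood at or above the 94.7th percentile of signal on each of the 5 arrays. Across probe sets, the 2 injured arrays correlated at 0.961, and each correlated with the controls at 0.918 to 0.941, while the controls correlated with one another at 0.938 to 0.957. The ratio of 3′ to 5′ actin probe sets, a sign of RNA integrity, was 0.617 and 0.641 on the injured arrays and 0.56 to 0.595 on the controls. The signals are MAS5 intensities scaled to a common level, and each change below is a difference of mean log2(signal + 13) between groups. All p-values for single genes come from limma's moderated test with Benjamini-Hochberg adjustment over 9180 probe sets, and a gene was called at an adjusted p under 0.05. A fold is 2 raised to that difference, which understates the change of weak genes, and SE is the standard error on the log2 scale.

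At 1 day, the largest rises included those of heat shock genes, immediate early genes and stretch-responsive sarcomere genes. Of 30 macrophage and monocyte markers 4 rose, and of 12 neutrophil markers 0, where 3.09% of all genes did. Of the 9180 probe sets tested, 325 were called (3.54%), 264 higher (2.88%) and 61 lower (0.664%). With 1 probe set standing for each of 6723 genes, 208 genes rose (3.09%) and 50 fell (0.744%), and the median change of all genes was -0.04 on the log2 scale. Both injured arrays lay beyond every control for all of these 258 genes, as they did for 14.2% of all probe sets upward and 14.9% downward. Of the genes that rose, 186 changed at least 2-fold and 65 at least 4-fold. Of those that fell, 29 changed at least 2-fold and 1, Wnt4, at least 4-fold. At an unadjusted p under 0.05 there were 14.7% of probe sets, and by gene 585 upward (8.7%) and 455 downward (6.77%). Among probe sets, 2.57% were called at least 2-fold higher with no overlap and 0.425% at least 2-fold lower. Leaving out an injured array lowered the count of called probe sets to 164 (without sample 421) or 166 (without sample 463), and the fall calls to 19 or 27.

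**Figure D1:**
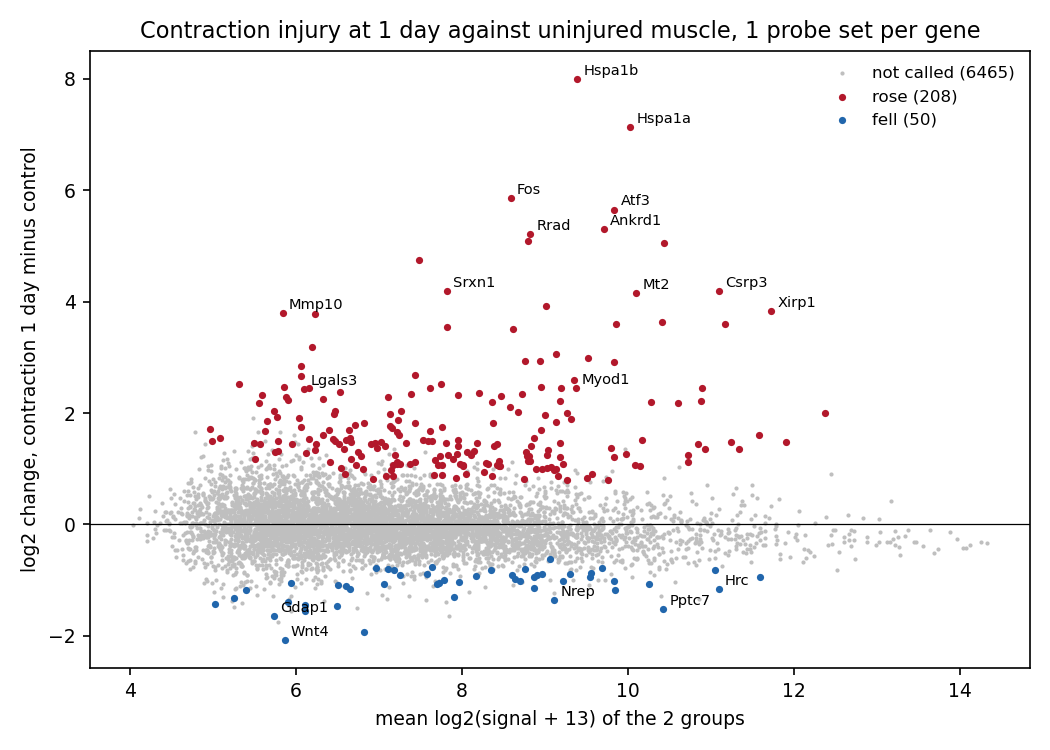
Each point is 1 gene: the x axis is its mean log2(signal + 13) over the 2 group means, and the y axis is the log2 change from control to 1 day after contraction. The 208 genes that rose (red) reach a change of 8.00, whereas the 50 that fell (blue) reach -2.07.

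The inducible Hsp70 genes rose most. Hspa1b and Hspa1a encode nearly identical inducible Hsp70 proteins, which bind unfolded stretches of other proteins. Hspa1b had signals of 36.4, 41.1 and 14.5 in the controls and of 10516 and 10940.3 in the injured arrays, a 256-fold rise (log2 change 8.00, SE 0.50, adjusted p = 3.02e-09). Hspa1a went from 112, 45.2 and 80.2 to 11635 and 13133, a 141-fold rise (SE 0.45, adjusted p = 3.02e-09). Both injured arrays lay far above every control and close to each other. Because the copies are so alike, their probe sets may take up each other's transcript, and how much each copy contributed is uncertain.

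The promoters of chaperone genes are shown because 2 of them had the largest rises of single genes and because a known control element of heat shock genes can be read in the sequence. Heat shock factor binds inverted repeats of the letters GAA and TTC, searched here as TTCNNGAA or GAANNTTC, each of which reads the same on both strands. The stretches are the 150 bases before a RefSeq start site (mouse build GRCm38.p6), written 5′ to 3′ on the gene's strand, with a match in capitals. Those of Hspa1a, Hspa1b, Hsph1, Dnaja1, Dnajb4 and Hspe1 were picked because they hold a match, and that of Dnajb1, a strong riser, because it holds none. Hspa1a lies at chr17:34972157-34972306 and Hspa1b at chr17:34959239-34959388, both on the minus strand, and their 300-base windows were identical at 296 positions. Hsph1 is at chr5:149636337-149636486 (minus), Dnaja1 at chr4:40722318-40722467 (plus), Dnajb4 at its second listed start at chr3:152193846-152193995 (minus) and Hspe1 at chr1:55087998-55088147 (plus). Dnajb1 is at chr8:83608025-83608174 (plus).
Hspa1a: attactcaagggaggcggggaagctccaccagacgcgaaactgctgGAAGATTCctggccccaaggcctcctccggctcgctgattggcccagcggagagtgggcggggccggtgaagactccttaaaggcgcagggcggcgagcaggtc
Hspa1b: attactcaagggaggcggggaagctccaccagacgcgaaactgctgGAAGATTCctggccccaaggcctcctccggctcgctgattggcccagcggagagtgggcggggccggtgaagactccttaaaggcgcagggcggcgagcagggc
Hsph1: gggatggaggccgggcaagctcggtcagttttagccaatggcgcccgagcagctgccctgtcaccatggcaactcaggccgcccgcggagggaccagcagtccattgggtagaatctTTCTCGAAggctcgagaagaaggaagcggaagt
Dnaja1: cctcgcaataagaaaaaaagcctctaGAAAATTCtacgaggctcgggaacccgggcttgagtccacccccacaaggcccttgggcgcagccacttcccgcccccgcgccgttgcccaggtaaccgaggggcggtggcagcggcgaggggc
Dnajb4: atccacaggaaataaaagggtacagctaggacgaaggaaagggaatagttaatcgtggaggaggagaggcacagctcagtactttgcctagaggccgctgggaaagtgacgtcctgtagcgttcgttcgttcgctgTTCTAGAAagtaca
Hspe1: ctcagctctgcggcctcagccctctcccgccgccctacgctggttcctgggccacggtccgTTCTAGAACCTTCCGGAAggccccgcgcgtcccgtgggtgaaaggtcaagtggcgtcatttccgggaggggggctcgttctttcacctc
Dnajb1: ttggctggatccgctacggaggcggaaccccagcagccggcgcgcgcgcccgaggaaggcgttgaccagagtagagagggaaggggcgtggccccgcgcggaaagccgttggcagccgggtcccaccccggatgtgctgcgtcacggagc
In Hspa1a and Hspa1b the match is GAAGATTC at position -104 from the start site, and in Hspe1 the capitals hold 3 overlapping matches. Either form of the element occurred between 250 bases before and 50 bases after a start in 17% of 27025 mouse genes with a promoter in the table and in 14.4% of 5382 tested genes. Of the chaperone genes with a promoter in the table, it occurred in 10 of 16 that rose (62.5%), and in 7 of 23 not called (30.4%). The nearly identical windows of Hspa1a and Hspa1b count as 2 of the 10. The risen chaperone genes Hsp90aa1, Hspa8, Cryab, Clu and Hspb2 had no promoter in the table and are not counted. The 6 risen chaperone genes with no match in the window were Dnajb1, Stip1, Dnajb2, Hspa1l, Serpinh1 and Cct7. Of all genes that rose or fell, 25.9% of 162 and 5.26% of 38 held it. A match describes the letters of this window and no binding was measured.

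Among the Hsp70 chaperones and their partners, 11 of 27 tested genes rose and 0 fell, against 3.09% and 0.744% of all genes, with a median change of 0.68 against -0.04. Dnajb1, the J-domain protein that hands clients to Hsp70, had 64.8, 66.4 and 58.8 in the controls and 2316 and 2873 after injury, a 34.0-fold rise (SE 0.24, adjusted p = 1.23e-10). The J-domain genes Dnajb4 (15.1-fold) and Dnaja1 (7.97-fold) rose, as did Hsph1 (7.58-fold), the Hsp110 that recharges Hsp70 with ATP. Bag3, which links Hsp70 to the clearing of damaged Z-disc proteins, had 958, 784 and 672 in the controls and 3370.4 and 5809.5 after injury, and rose 5.48-fold. Stip1, the adaptor between Hsp70 and Hsp90, rose 4.30-fold, and Hspa8, the constitutive family member, rose 3.06-fold from an already high level of 1459.8, 2336 and 1539 to 5259 and 5439. The other members called were Dnajb2 (2.71-fold) and Hspa1l (2.34-fold). The lowest members, Dnaja3 (log2 change -0.44) and Dnaja2 (-0.40), did not pass the test.

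Hsp90, the small heat shock proteins and the other cytosolic and mitochondrial chaperones gave 10 rises and 0 falls among 22 tested genes. Among all genes 3.09% rose and 0.744% fell. The median change of the list was 0.81. Hsp90aa1, the inducible Hsp90, had signals of 184, 212 and 306 in the controls and 7166 and 8869 after injury, a 33.0-fold rise (SE 0.34, adjusted p = 6.21e-09). Cryab, the small heat shock protein that guards desmin and titin, had 1115, 1122 and 514 in the controls and 4521 and 3662 after injury, a 4.65-fold rise. A second, dim Cryab probe set was not called (log2 change -0.10). Hspb8 rose 4.03-fold and Hspb2, a muscle small heat shock protein, 2.79-fold. The mitochondrial pair Hspe1 and Hspd1, which form the matrix folding chamber, rose 4.58-fold and 2.55-fold. Clu, an extracellular chaperone, rose 6.04-fold, and Serpinh1, the collagen chaperone, rose 5.45-fold with 904 and 2013 in the injured arrays. Cct5 and Cct7, of the chaperonin that folds actin and tubulin, rose 1.73-fold and 1.78-fold. The other Cct5 probe set was not called (change 0.14).

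Chaperones of the endoplasmic reticulum and unfolded protein response genes had smaller folds. In this list 9 of 21 tested members rose and 0 fell, against 3.09% and 0.744% of all genes, and the median change was 0.58. Hspa5, the main Hsp70 of this compartment, had 570.2, 729 and 616 in the controls and 1482 and 1606 after injury, a 2.40-fold rise (SE 0.20, adjusted p = 0.000431). Ppp1r15a, which ends the translation block of stressed cells, rose 4.94-fold, Manf 3.52-fold, the disulfide isomerases Pdia6 and Pdia3 3.05-fold and 2.81-fold, and Hsp90b1 2.02-fold. The transcription factors of the response, Atf4 and Xbp1, rose 2.38-fold and 2.33-fold, whereas Ddit3, a death-linked factor of the same response, had a log2 change of -0.32 that did not pass. The count of rises was 5 without sample 421.

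**Figure D2:**
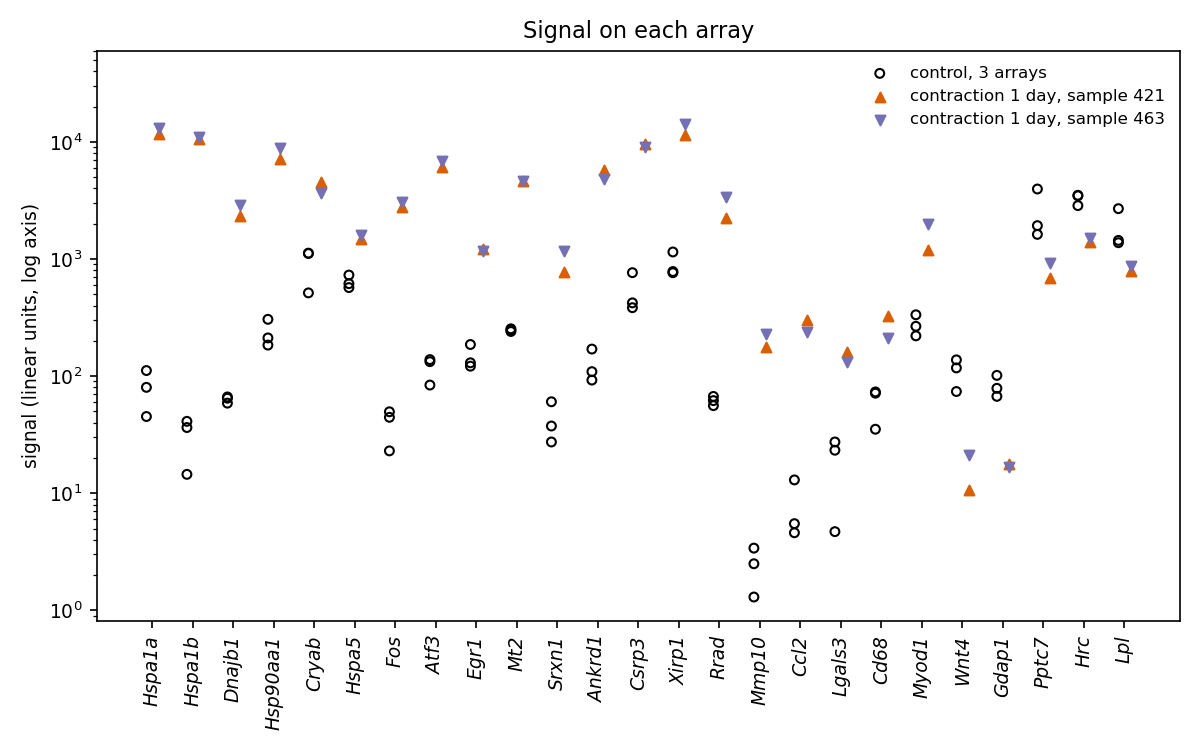
Signal of 25 genes on each array, on a log axis: open circles are the 3 controls, and the upward and downward triangles are samples 421 and 463. The triangles lie above every circle for genes that rose, such as Hspa1b at 10516 and 10940 against at most 41.1, and below every circle for the 5 genes on the right that fell.

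Immediate early genes, which encode short-lived regulators switched on by calcium, stretch or growth factors, had the highest median of the 49 lists, 1.21. Of 32 tested members 17 rose and 0 fell, against 3.09% and 0.744% of all genes. Fos, a subunit of the AP-1 transcription factor, had 44.5, 23 and 49.6 in the controls and 2771 and 3068 after injury, a 57.9-fold rise (SE 0.35, adjusted p = 1.72e-09). Atf3, a stress-induced partner of AP-1, had 83.9, 138 and 133 in the controls and 6072 and 6899 after injury, a 50.3-fold rise, and its second probe set also rose. Of the other AP-1 subunits Fosl1 rose 6.31-fold, Junb 5.06-fold and Jun 2.24-fold. Egr1, a zinc finger factor of the same early wave, had 122, 130.0 and 186 in the controls and 1217 and 1165 after injury, a 7.69-fold rise. Myc, a growth regulator, rose from 8.2, 17.5 and 3.5 to 87.7 and 86.4. Cebpd and Cebpb, inflammation-linked factors, rose 4.04-fold and 2.60-fold. The mRNA decay factors Zfp36 and Zfp36l1 rose 3.33-fold and 2.81-fold, and the MAP kinase phosphatase Dusp1 rose 2.86-fold. Ier2, Btg2, Ier3, Klf6 and Klf10 were the other members called. Without sample 463 the list had 11 rises.

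The gene list for stretch sensing and membrane repair had 8 rises and 0 falls among 20 tested genes, and a median of 0.78. The shares of all genes were 3.09% and 0.744%. Ankrd1, an ankyrin repeat protein that binds titin and moves to the nucleus under load, had 92.5, 170.2 and 109 in the controls and 5759 and 4800.4 after injury, a 39.6-fold rise (SE 0.27, adjusted p = 2.20e-10). Csrp3, the muscle LIM protein of the Z-disc, had 764, 422 and 384 in the controls and 9646 and 9113 after injury, an 18.3-fold rise. Xirp1, which marks repairing myofibrils, had 1149, 782 and 764 in the controls and 11522 and 14193 after injury, a 14.3-fold rise. Ankrd2, a stretch-responsive relative of Ankrd1, had 1319, 480.4 and 430.4 in the controls and 7918 and 8168 after injury, and rose 12.2-fold although 1 control was well above the others. Bag3, described above, belongs to this list too. The intermediate filament gene Nes rose 2.95-fold, the membrane repair gene Anxa2 2.51-fold and the costamere gene Vcl 2.31-fold.

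Of 20 tested metallothionein and antioxidant genes, 4 rose and 0 fell, where 3.09% and 0.744% of all genes did, and the median was 0.07. Mt2, a metal-binding protein, had 246, 254 and 240.5 in the controls and 4610.2 and 4616 after injury, a 17.8-fold rise (SE 0.28, adjusted p = 6.21e-09), and Mt1 rose 11.4-fold. The 2 metallothionein genes are closely related, so their separate values are uncertain. Srxn1, which repairs oxidised peroxiredoxins, rose 18.2-fold on the probe set that stood for it, but its other probe set had a change of -1.11 that did not pass (adjusted p = 0.162). Hmox1, which breaks down haem, had 401, 272 and 356 in the controls and 1053 and 862 after injury, a 2.75-fold rise. Nqo1, a standard NRF2 target, had a change of -0.63 and was not called.

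Growth arrest genes of the p53 and GADD45 group gave 7 rises and 0 falls among 17 tested, with a median of 0.73. Of all genes tested, 3.09% rose and 0.744% fell. Phlda1, a pleckstrin domain protein, had 23.5, 19.4 and 22.3 in the controls and 789 and 1061 after injury, a 26.8-fold rise (adjusted p = 2.97e-09). Gadd45g and Gadd45a, stress sensors that bind p38-pathway kinases and cyclins, rose 8.39-fold and 3.93-fold, and Ddit4, an inhibitor of mTORC1, rose 3.20-fold. Without either injured array, or without control 3, this list had 4 rises. In the list of calcium-linked regulators and polyamine enzymes 6 of 13 rose, against the same 3.09% of all genes. Rrad, a small GTPase that restrains calcium channels, had 56, 61.8 and 67.1 in the controls and 2222 and 3403 after injury, a 37.1-fold rise (SE 0.27, adjusted p = 2.20e-10). Rcan1, the feedback inhibitor of calcineurin, had 382, 379.8 and 356 in the controls and 4189 and 5483 after injury, a 12.5-fold rise. Odc1, Srm and Azin1, of polyamine synthesis and its control, rose 2.10-fold, 3.46-fold and 3.60-fold. Srm was not called without sample 421 (log2 change 1.98, adjusted p = 0.139), sample 463 (1.60, adjusted p = 0.294) or control 1 (1.09, adjusted p = 0.0924).

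**Figure D3:**
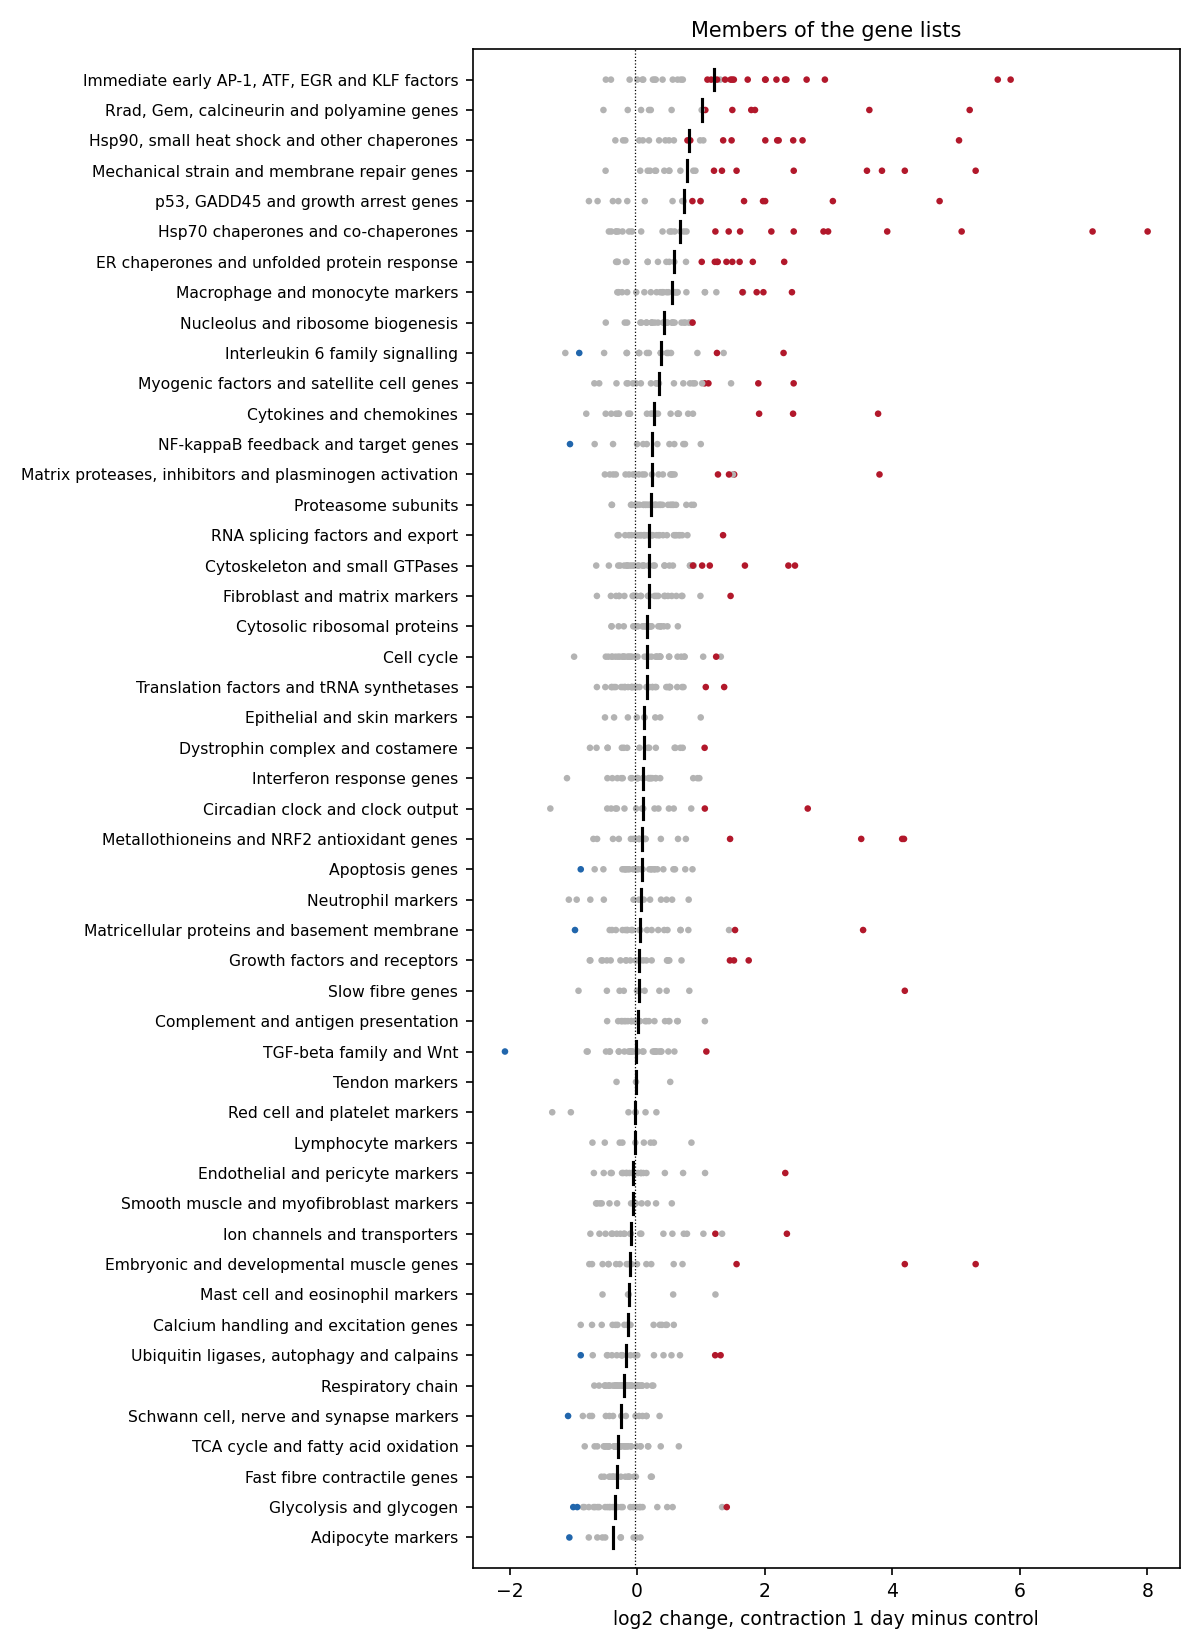
Log2 change of every tested member of each gene list, 1 list per line: red members rose, blue fell, grey were not called, the short bar is the list's median and the dotted line is the median of all genes, -0.04. Immediate early genes (1.21) are at the top and adipocyte markers (-0.38) at the bottom.

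A few inflammatory genes rose. Among 22 tested cytokines and chemokines 3 rose, all CC chemokines, where 3.09% of all genes rose. Ccl2, which recruits monocytes, had 4.6, 13 and 5.5 in the controls and 299.5 and 237 after injury, a 13.7-fold rise (SE 0.45, adjusted p = 2.16e-05). Ccl9 rose 5.44-fold and Ccl7 3.76-fold. Il6 had a change of 0.18, Il1b of -0.11 and Tnf of -0.49, and none of these was called. The SEs were wide, 0.54 for Il6 and 0.73 for Il1b, so a change could go uncalled. In the 6 hour group of the same fit, sample 431 had 209.7 for Il6 and 277.2 for Il1b. The other arrays of that group had at most 31.1 and 10. Of the interleukin 6 pathway, the feedback inhibitor Socs3 rose 4.91-fold and the kinase Pim1 2.38-fold, and the receptor subunit Lifr fell by 0.91 on the log2 scale, with 19 members tested. The other Lifr probe sets were not called (changes of -0.31, -0.13 and 0.31). None of 12 NF-kappaB targets rose, and Tnfaip2 fell by 1.05.

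Markers of other cell types were read as whole lists. Of 30 macrophage and monocyte markers 4 rose and 0 fell, and 10 had an unadjusted p under 0.05 upward, where 8.7% of all genes did. Their median was 0.54 against -0.04 for all genes. Lgals3, galectin-3 of activated macrophages, had 27.4, 23.3 and 4.7 in the controls and 161 and 133 after injury, a 5.38-fold rise (SE 0.34, adjusted p = 0.000168). Cd68, a lysosomal marker of the lineage, had 71.5, 35.2 and 73.3 in the controls and 329 and 214 after injury, a 3.94-fold rise. Lyz2 and Ctss, a lysozyme and a cathepsin, rose 3.67-fold and 3.14-fold. The summed signal of the 31 markers on the array was 1649 to 2129 in the controls, 3858 in sample 421 and 2741 in sample 463, and none of them was listed at 0. The receptor Csf1r, which defines the lineage, had 111, 77.1 and 76.9 in the controls and 147 and 106 after injury and was not called. The list had 2 rises without sample 421 and 2 without control 3. With all 25 arrays in the fit Lgals3 and Cd68 were not called by limma (adjusted p = 0.465 and 0.393). In a whole muscle, more or fewer cells of a type cannot be told apart from more or less RNA per cell. The part of macrophages in the other rises, such as those of chemokines, was not tested.

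The other cell type lists held few calls. Of the neutrophil (12 tested), lymphocyte (9), mast cell and eosinophil (5), red cell and platelet (7), tendon (3), smooth muscle (14) and epithelial (9) markers, limma called 0. The neutrophil markers S100a8 and S100a9 had changes of 0.81 (SE 0.72) and 0.55 (SE 0.73). These SEs were wide, and 6 hour sample 431 of the same fit had 802.6 and 480.4. The other 6 hour arrays had at most 67.5 and 32. Unadjusted p-values under 0.05 were found for 0 upward and 2 downward neutrophil markers, 1 and 1 mast cell markers, 0 and 3 smooth muscle markers, 1 and 0 epithelial markers, and for no lymphocyte, red cell or tendon marker. Over all genes the shares were 8.7% upward and 6.77% downward. The summed red cell and platelet signal was 1659 and 2001 after injury and 3095 to 4665 in the controls, and its most changed member, the globin Hba-a1, had 3034, 2231 and 3736 in the controls and 983 and 1368 after injury, not called (log2 change -1.33, SE 0.64). Endothelial markers had 1 rise among 22, Selp, the adhesion receptor that slows leukocytes, at 6.8, 7.2 and 12.3 in the controls and 132 and 67.9 after injury. Fibroblast and matrix markers had 1 rise among 29, Mgp (2.76-fold). Of 15 Schwann cell, nerve and synapse markers only Mbp, a myelin protein, was called, and fell by 1.08. The second Mbp probe set was not called (change 0.27). Of 10 adipocyte markers only Lpl, which releases fatty acids from lipoproteins, was called: it had 1442, 1377 and 2691 in the controls and 794 and 869.8 after injury, and its second probe set was not called (change -0.79).

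Muscle regulators rose in part. Of 24 tested myogenic and satellite cell genes 4 rose and 0 fell, where 3.09% and 0.744% of all genes did. Myod1, the factor that commits cells to muscle, had 334, 221 and 266 in the controls and 1186 and 1993 after injury, a 5.48-fold rise (SE 0.33, adjusted p = 8.40e-05). Myf6, the regulator most abundant in mature fibres, rose 3.73-fold, and Myog, which drives differentiation, had 135, 119 and 144 in the controls and 262 and 245 after injury and was not called. Itga7, a laminin receptor subunit, and Id3, an inhibitor of differentiation factors, were the other members called. Myf5 had a change of 0.22. Of 18 embryonic and developmental muscle genes 3 rose, and all 3 (Ankrd1, Csrp3 and Nes) also belong to the stretch list. The embryonic myosin Myh3 and the neonatal myosin Myh8 had changes of 0.22 and 0.57 and were not called. The count of myogenic genes called was 2 without either injured array.

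The contractile and metabolic genes of the fibre made few calls. Of 19 fast fibre contractile genes 0 were called by limma, 0 had an unadjusted p under 0.05 upward and 1 downward, and the median was -0.31. Myh4, the fastest myosin, had 15068, 17696 and 30947 in the controls and 13951 and 17613 after injury, and the groups overlapped. The slow fibre list had 1 rise among 11, Csrp3 again, and of 16 calcium handling genes limma called 0, with 1 upward and 3 downward at an unadjusted p under 0.05. Glycolysis and glycogen genes had a median of -0.35 over 29 genes. Gys1, glycogen synthase, and Gpd2, of the glycerol phosphate shuttle, fell by 0.94 and 1.00, and Ppp1r3c, which targets phosphatase 1 to glycogen, rose 2.65-fold. Of 43 genes of the citric acid cycle and fatty acid oxidation limma called 0, with 1 upward and 6 downward unadjusted, where 8.7% and 6.77% of all genes were, and a median of -0.29. Of 55 respiratory chain genes it also called 0, with 0 upward and 3 downward unadjusted and a median of -0.20. Proteasome subunits had 0 calls among 36 and 7 upward unadjusted. Of 18 ubiquitin ligase, autophagy and calpain genes, Gabarapl1 and Capn2 rose 2.48-fold and 2.34-fold and Bnip3 fell by 0.88.

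Matrix proteases and their inhibitors rose in 4 of 23 tested genes, where 3.09% of all genes rose. Mmp10, stromelysin-2, had the clearest step: 3.4, 1.3 and 2.5 in the controls and 178 and 227 after injury, a 13.9-fold rise on the log2(signal + 13) scale (SE 0.36, adjusted p = 1.11e-06). The control signals lay far below 13, so this fold depends on the added constant. Thbd, Mmp3 and Timp1 rose 2.87-fold, 2.71-fold and 2.41-fold, and the list had 1 rise without either injured array. Of 23 matricellular and basement membrane genes, Ccn1 and Ccn2, secreted targets of stretch signalling, rose 11.7-fold and 2.90-fold, and Sparcl1 fell by 0.97. The promoter of Mmp10 is shown because AP-1 subunits rose in the same muscle: the stretch at chr9:7502192-7502341 (plus strand, GRCm38.p6) holds 2 matches, in capitals: the AP-1 site TGAGTCA at position -63 and the heat shock pattern as GAATGTTC at position -104.
Mmp10: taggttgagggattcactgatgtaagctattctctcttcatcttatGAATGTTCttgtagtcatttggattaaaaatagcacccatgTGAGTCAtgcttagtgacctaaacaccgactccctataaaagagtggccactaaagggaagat
The AP-1 motif TGANTCA, searched on both strands, was found in 8.97% of all genes' windows, 7.26% of tested genes and 11.7% of the genes that rose. No binding was measured, and whether AP-1 had a part in the rise of Mmp10 was not tested.

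Several signalling and housekeeping lists held single calls. Among growth factors, Hbegf, an EGF receptor ligand, rose 3.36-fold, and Fgf1 and Gdnf rose 2.86-fold and 2.74-fold, of 24 tested. In the TGF-beta and Wnt list of 31, Smad1 rose 2.12-fold and Wnt4 had the deepest fall of any gene. Wnt4, a secreted ligand made by muscle fibres, had 73.9, 138 and 118 in the controls and 10.6 and 21.3 after injury, and fell by 2.07 (SE 0.44, adjusted p = 0.00922). Of 34 cytoskeletal genes 6 rose, led by Tubb6 (5.56-fold), a beta tubulin, and by the leukocyte actin bundler Lcp1 (5.17-fold) and Coro1a (3.23-fold), and the count was 3 without either injured array. Of 16 clock genes, Nfil3, a repressor of clock output, rose 6.39-fold and Arntl, a core activator, 2.09-fold, while Dbp, an output activator, had 196, 349.5 and 355 in the controls and 95 and 116 after injury and was not called (adjusted p = 0.067). Slc38a2 and Slc20a1, carriers of amino acids and phosphate, rose 5.09-fold and 2.34-fold among 21 transporters. A second, dim Slc38a2 probe set was not called (change -0.76). Other probe sets of Gdnf (change 0.07), Lcp1 (0.73), Eif1a (0.28) and Sfpq (0.56 and 0.66) were not called either. Single rises were Itga7 among 16 dystrophin complex genes, Ccnf among 39 cell cycle genes, Gnl3 among 29 nucleolar genes and Sfpq among 33 splicing genes. Of all genes 3.09% rose. In the nucleolar list 11 members were upward and 1 downward at an unadjusted p under 0.05, where 8.7% and 6.77% of all genes were. Its median was 0.42 against -0.04 for all genes. Eif1a and Eif5 rose among 36 translation genes, and Bnip3 fell among 27 apoptosis genes. Of 26 ribosomal protein genes, 23 complement and antigen presentation genes and 25 interferon response genes limma called 0, with 0, 1 and 3 at an unadjusted p under 0.05.

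Fewer genes fell, and by less. Pptc7, a mitochondrial phosphatase, had 1927, 1623 and 3959.8 in the controls and 685 and 929.9 after injury, and fell by 1.52 (SE 0.33, adjusted p = 0.00927). Hrc, the histidine-rich calcium-binding protein of the sarcoplasmic reticulum, had 2857, 3499 and 3466 in the controls and 1384 and 1513 after injury, and fell by 1.16 (adjusted p = 0.00268). In both genes each injured array lay below every control. Nrep had 723, 813 and 1143 in the controls and 356 and 312 after injury, and fell by 1.36 (adjusted p = 0.000277). Gdap1, a mitochondrial outer membrane protein, fell by 1.65, Pgs1, of cardiolipin synthesis, by 1.39, Egf by 1.31 and Gpam, which begins triglyceride synthesis, by 1.17. The others among the 15 largest falls were Gm13205, Pik3r2, Ap5s1, Apmap, F8a, Gpr19 and 2610301B20Rik, which reached from -1.17 to -1.92. None of the 50 falls was called in every one of 21 alternative settings, whereas 75 of the 208 rises were, among them the 15 largest.

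Many of the smaller changes named above rest on both injured arrays. Of the 258 called genes, 119 were called without sample 421 and 128 without sample 463. Of the named genes, those not called without either array in turn were Srm, Sema3b, Pdia6, Hsp90b1, Hspd1, Hspa1l, Cct7, Cebpb, Klf6, Jun, Pim1, Ccn2, Thbd, Mmp3, Timp1, Mgp, Fgf1, Smad1, Itga7, Ppp1r3c, Slc20a1, Sfpq, Ccnf, Plekho1 and Gnl3 among the rises. Among the falls they were Bnip3, Lifr, Gys1, Sparcl1, Lpl, Egf, Gpr19, F8a, Pik3r2 and Gdap1. Without sample 421 alone, Lcp1, Lyz2, Ctss, Ddit4, Arg1, Pdia3, Hmox1, Eif1a, Eif5, Id3, Gpd2, Tnfaip2, Hrc, Gpam, Apmap, Ap5s1, Pptc7, Gm13205 and Wnt4 were not called. Without sample 463 alone, Gadd45a, Myf6, Zfp36l1, Ier3, Gdnf, Tmem43, Xbp1, Klf10, Odc1, Arntl, Cct5, Mbp, 2610301B20Rik and Pgs1 were not called. None of these genes changed direction.

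Between 6 hours and 1 day after contraction few genes differed. Limma called 24 of 9180 probe sets (0.261%), 22 higher (0.24%) and 2 lower (0.0218%) at 1 day, and 805 (8.77%) had an unadjusted p under 0.05. By gene, 17 were higher (0.253%) and 1 was lower (0.0149%). Mmp10 had 39.4, 17.4 and 41.2 at 6 hours and 178 and 227 at 1 day, a difference of 2.28 (SE 0.36, adjusted p = 0.0085). Mybph, myosin-binding protein H, had 1319, 605 and 789 at 6 hours and 2937 and 3671 at 1 day, a difference of 1.92 (adjusted p = 0.00825). The controls had 857, 540.3 and 792, so that 1 of the 6 hour arrays lay above them, and both 1 day arrays lay above all the others. Tmem43, a nuclear envelope protein, had 147, 111 and 70.3 at 6 hours and 365 and 452 at 1 day (difference 1.82, adjusted p = 0.00152). Lgals3 went from 40.7, 51.4 and 17.2 to 161 and 133 (difference 1.76, adjusted p = 0.0323). Nes and Anxa2 were also higher at 1 day, by 1.47 and 1.36. Sema3b, Plekho1, Ccnf and Peg3 complete the 8 highest, with differences of 2.01, 1.73, 1.62 and 1.56, and Peg3 was not called against control. The gene that was lower was Cebpd, with 2370.2, 1730.2 and 2053 at 6 hours and 764 and 861 at 1 day, a difference of -1.31 (adjusted p = 0.0309). Hspa1a (difference -0.27, SE 0.45), Fos (-0.90, SE 0.35) and Ankrd1 (-0.43, SE 0.27) were not called. Fos had 6395, 4159 and 6066 at 6 hours and 2771 and 3068 at 1 day. Without a test, the summed immediate early signal was 34188 to 38054 at 6 hours and 22369 to 25436 at 1 day. That of the endoplasmic reticulum chaperone list was 7733 to 7995 at 6 hours and 10021 to 10072 at 1 day. This comparison had 2 calls without sample 421 and 0 without sample 463, where 497 probe sets had an unadjusted p under 0.05. Without one of the 6 hour arrays it had 9 to 13.

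By 3 days and 7 days the signals of the leading genes had other levels, given here without a test. Hspa1a had 683, 1763 and 3453 at 3 days and 156, 120.1 and 97.3 at 7 days, against 112, 45.2 and 80.2 in the controls. Fos had 264, 385 and 416 at 3 days and 138, 43.8 and 49 at 7 days. Ankrd1 still had 4167, 2540.5 and 5304 at 3 days and 790.2, 767 and 754 at 7 days. The chaperone and Fos signals at 3 days thus lay far below both 1 day arrays, whereas 1 of the 3 Ankrd1 signals lay between the 1 day arrays. Lgals3, in contrast, had 1350.5, 1540.2 and 1779.6 at 3 days, above both 1 day arrays, and the summed macrophage signal was 13733 to 22186 at that time.

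**Figure D4:**
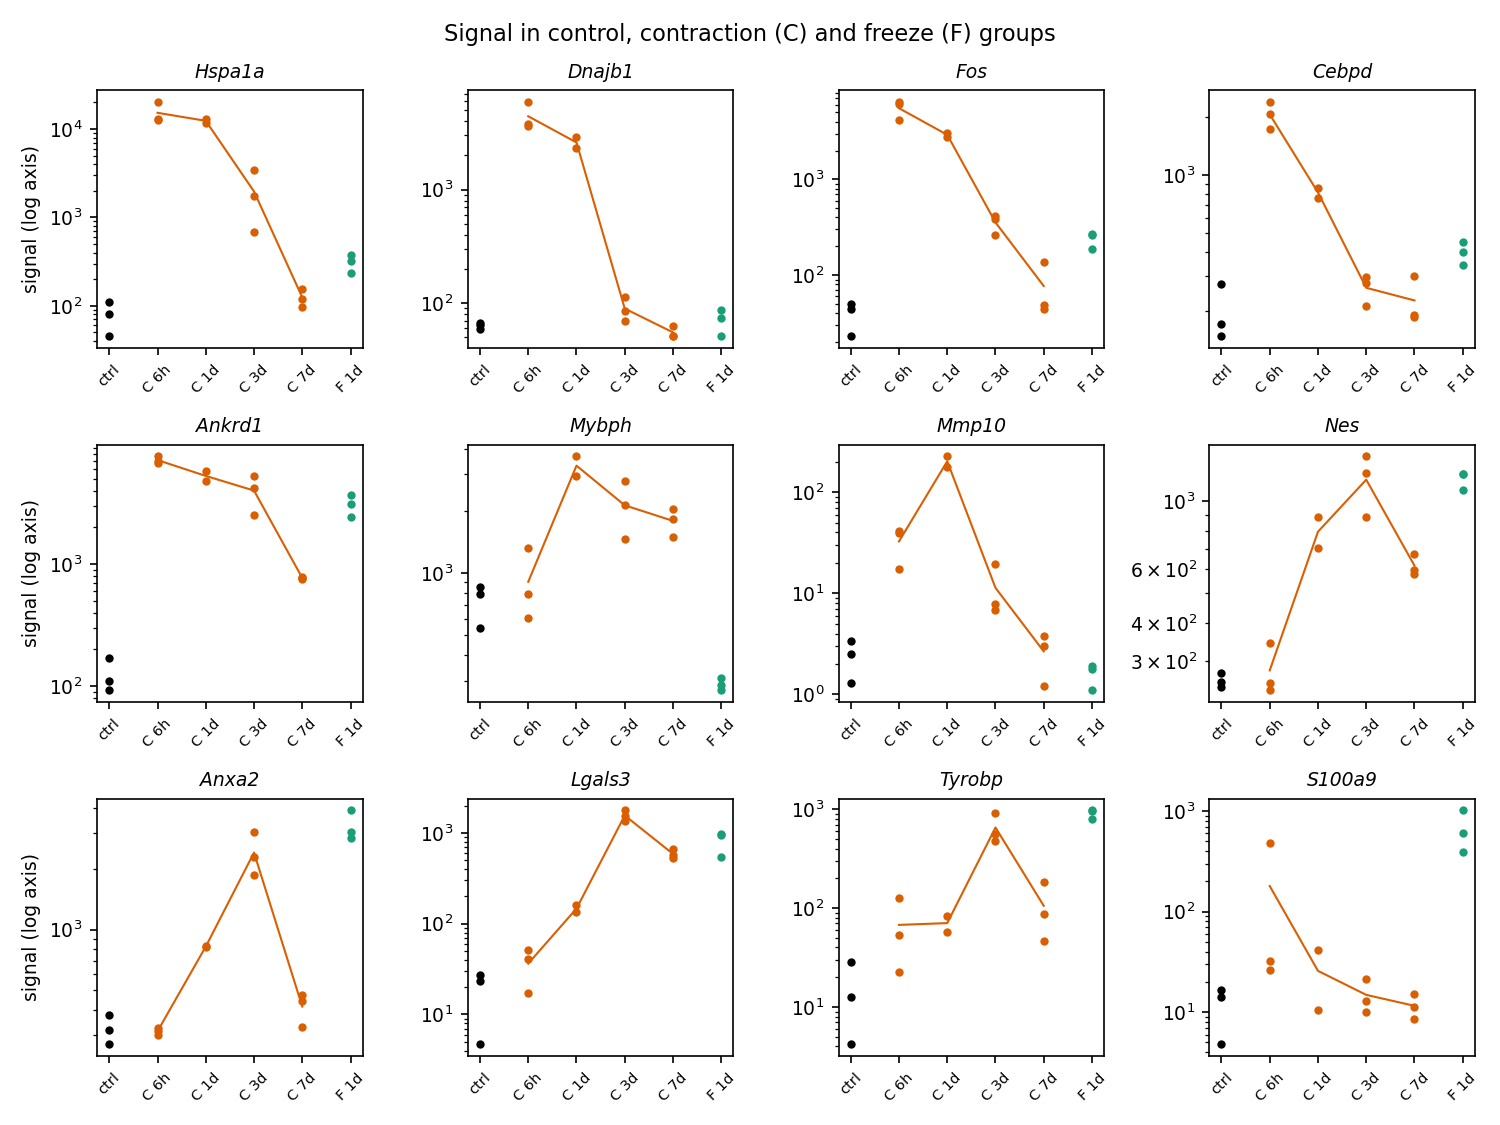
Signal of 12 genes on a log axis in the controls, the contraction groups (C, line through group means) and the freeze group at 1 day (F), 1 point per array. Hspa1a, Dnajb1 and Fos are high at 6 hours and 1 day, Mmp10 reaches 227 at 1 day, and Lgals3, Tyrobp and Anxa2 are higher at 3 days than at 1 day.

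At 1 day after injury, contracted and frozen muscle differed in both directions, also among chaperone genes. Limma called 745 probe sets (8.12%), 501 higher after freezing (5.46%) and 244 higher after contraction (2.66%), and by gene 390 (5.8%) and 188 (2.8%). Hspa1b had 164, 160.5 and 204 after freezing and 10516 and 10940.3 after contraction, a difference of -5.83 (SE 0.50, adjusted p = 8.61e-07). Dnajb1 had 51.4, 87.3 and 73.5 after freezing and 2316 and 2873 after contraction, a difference of -4.98 (SE 0.24, adjusted p = 3.64e-10). Fos was lower after freezing by 3.55, Atf3 by 3.06, Dnajb4 by 3.23 and Hspa1a by 5.28 on the log2 scale. Mmp10 had 1.9, 1.1 and 1.8 after freezing, near the controls, and Mybph had 309, 269.6 and 285, below every control. Of the 27 Hsp70 list genes 12 were lower and 1 higher after freezing, and of the 22 in the Hsp90 and small heat shock protein list 8 were lower and 0 higher. Endoplasmic reticulum chaperones went the other way, with 6 of 21 higher and 0 lower after freezing and a median difference of 0.42. Among them Hspa5 was higher after freezing by 0.96 (adjusted p = 0.00367). Of 32 immediate early genes 8 were lower and 2 higher after freezing.

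Markers of neutrophils and macrophages were among the genes highest after freezing. S100a8, a calcium-binding protein of neutrophils, had 1124, 1539.7 and 2004 after freezing and 103 and 30.5 after contraction, against 25.1, 22.5 and 36.2 in the controls, and the injuries differed by 4.43 (SE 0.72, adjusted p = 0.000659). Tyrobp, a signalling adaptor of myeloid cells, had 794, 978 and 959 after freezing and 83.1 and 58 after contraction (difference 3.48, adjusted p = 0.000187). Arg1, S100a9, Adam8, Slfn4, Cd53 and Il1b complete the 8 highest, with differences from 3.43 to 4.27. Of 30 macrophage markers 24 were higher after freezing and 0 lower, and their summed signal was 11509 to 15438. Of 12 neutrophil markers only 4 were higher and 0 lower, with a median difference of 0.45, where 5.8% of all genes were higher. Rrad (difference 0.07, SE 0.27) and Ankrd1 (-0.79, SE 0.27) were not called between the injuries. The actin 3′ to 5′ ratio was 1.01 to 1.31 on the freeze arrays and 0.617 and 0.641 here, and its part in these differences was not tested. Without sample 463 the comparison had 255 calls and without sample 421 it had 388.

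The 2 injured arrays are set side by side here. Of the 208 genes that rose, 134 rose further in sample 463 and 7 differed more than 2-fold between the arrays. A call favours genes with like values on both arrays, so these counts cannot show how well the arrays agree. Over all 6723 genes the median absolute difference was 0.26 on the log2 scale, and 391 genes differed more than 2-fold. Macrophage, neutrophil and cytokine lists were lower in sample 463, with medians of -0.43, -0.42 and -0.34 for sample 463 minus sample 421. Lists of other kinds were lower too, among them the nerve (-0.36), complement (-0.35), mast cell (-0.32) and epithelial (-0.26) lists. The growth arrest (0.31) and fast fibre (0.28) lists were higher, and the median of all genes was -0.04. The 20th percentile of signal was 16.5 in sample 421 and 11.6 in sample 463, and its part in these differences was not tested. Among genes with a signal above 100 in either array, Apoe, a lipid carrier abundant in macrophages, had 169 in sample 421 and 31.1 in sample 463, with controls at 102, 208 and 19.7. The others furthest toward sample 421 were Prpmp5, Dao, Igfbp4, Nudcd2 and Cyp2c38. Furthest toward sample 463 were Meg3, Cntfr, Naa40, Pitx3, Hira and Abcb8. None of these 12 genes was called against control.

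**Figure D5:**
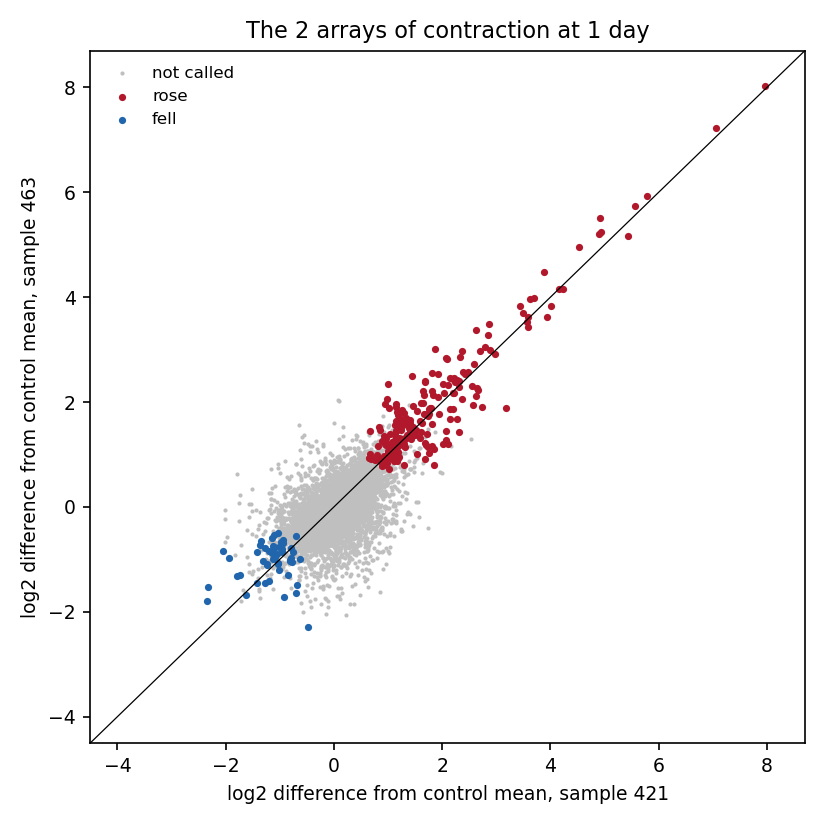
Log2 difference from the control mean for each gene in sample 421 (x) and sample 463 (y), with the line of equality. The genes that rose (red) lie along the line up to 8, and those that fell (blue) form a looser group below 0. A call favours genes with like values on both arrays.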

How the data were processed

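RNA of each muscle was hybridised to 1 Affymetrix Murine Genome U74 array. The deposited values are intensity signals, 1 per probe set on a linear scale, which the authors made with MAS5 per the submitters' processing notes (version, detection calls and build not given in the sources used here). The 2% trimmed mean was 150.1 on all 5 arrays, so a level is read against the other probe sets of its array. Read depth does not apply, and the number of arrays limits the precision.

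Of 12488 probe sets, 66 were Affymetrix controls, 10833 had 1 gene symbol, 396 had several and 1193 were unnamed here. Symbols come from the platform annotation, updated through a RefSeq table (16 kept the old symbol). The brightest probe set stood for a gene. Of 80 genes with several tested probe sets and a call, 18 had all called and 62 part. A change named in the text may therefore not be shared by every probe set of its gene. With limma 3.58.1 in R 4.3.3, log2(signal + 13) was fitted over 17 arrays of 6 groups (control, 4 contraction times and freeze at 1 day) with an intensity trend, after keeping probe sets above the array's 40th percentile on at least 2 arrays. 13 is the 20th percentile of all values. The freeze 3 day group was kept out of the fit, since its sample 436 correlated with controls at 0.947 to 0.952 and with the rest of its group at 0.801 to 0.802. The procedure was tested on simulated data. Other freeze groups are in the alternatives only.

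The text names the 15 largest rises and falls, called members and extremes of 49 gene lists, and the 8 most different genes of the other comparisons. The members, lists and naming rule were chosen with earlier results of these data known. Promoters (32851, RefSeq, GRCm38.p6) matched 5382 tested genes by Entrez gene identifier. Samples of different groups share no replicate number.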

Additional observations from a re-analysis of the deposited data

Results flagged for a closer look

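A direct test between contraction at 1 day and at 6 hours called 17 genes higher and 1 lower at 1 day. On the log2 scale the 8 with the highest differences and the 1 that was lower are given here, and these were 2.28 for Mmp10, 2.01 for Sema3b, 1.92 for Mybph, 1.82 for Tmem43, 1.76 for Lgals3, 1.73 for Plekho1, 1.62 for Ccnf, 1.56 for Peg3 and -1.31 for Cebpd.

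A direct test between the injuries at 1 day called 390 genes higher and 188 lower after freezing, of which the 8 most different in each direction are given here. Freezing minus contraction was 4.43 for S100a8, 4.27 for Arg1, 4.16 for S100a9, 3.87 for Adam8, 3.80 for Slfn4, 3.50 for Cd53, 3.48 for Tyrobp and 3.43 for Il1b. It was -5.83 for Hspa1b, -5.28 for Hspa1a, -4.98 for Dnajb1, -3.87 for Mmp10, -3.55 for Fos, -3.46 for Mybph, -3.23 for Dnajb4 and -3.06 for Atf3.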

How the results depend on the processing

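Across 21 alternative settings none of the 258 called genes reversed, and 75 kept their call in all that gave them a value. With all 25 arrays in the fit, which include the freeze 3 day array that goes against its label, 170 probe sets were called against control (155 higher, 15 lower), 4 against 6 hours and 138 between injuries. The macrophage and cytoskeleton lists then had 0 rises by limma, with 974 probe sets at an unadjusted p under 0.05 against control. Without that array (24 arrays) the lower calls were 103 and the 6 hour calls 50. With only the 2 groups compared, 207 were called against control, 24 of them lower, and 0 against 6 hours (772 at an unadjusted p under 0.05). At an adjusted p under 0.01 the counts were 186 (173 higher, 13 lower), 7 and 363. Without a filter on low values 40 were lower. The 6 hour calls were 14 without the intensity trend, 50 with array weights and 13 with the 14 control and contraction arrays, a setting chosen after seeing the data. Array weights gave 1119 calls between injuries. Leaving out each array in turn gave 164 to 334 calls against control (139 to 282 higher, 19 to 67 lower; 34 lower without control 3), 0 to 13 against 6 hours and 255 to 611 between injuries. The cause of these moves was not tested. Without 1 of the injured arrays the other is assumed to vary like the other groups, and the number of arrays limits every comparison. The labels give the groups no shared replicate numbers. With adjacent sample numbers as a random block (estimated correlation 0.113), 328 probe sets were called against control, 25 against 6 hours and 929 between injuries, and 256 of the 258 genes kept their call against control.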

Other observations

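Several of the strongest rises belonged to none of the lists and are named after their values were seen. Rgcc, a regulator of cell cycle kinases, had 341, 282 and 168 in the controls and 2977 and 3438 1 day after contraction, a 12.1-fold rise (adjusted p = 1.46e-06). Enah, which extends actin filaments, had 173, 194 and 133 in the controls and 1300.0 and 1409.6 after injury, a 7.68-fold rise. Plet1 and Sertad1 rose 9.09-fold and 7.15-fold from control signals of at most 21.9. Ifrd1, Runx1 and Errfi1, regulators of transcription and of EGF receptor signalling, rose 5.12-fold, 4.68-fold and 4.56-fold. Runx1 was not called without sample 421 (log2 change 2.54, adjusted p = 0.0892), sample 463 (1.91, adjusted p = 0.277), control 1 (1.98, adjusted p = 0.0977) or control 3 (2.33, adjusted p = 0.0501).

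A further 4 unlisted genes encode metabolic enzymes. They were picked singly after their values were seen, so they say nothing of their pathways as groups. Uck2, which salvages uridine and cytidine, had 90.3, 74.8 and 66.1 in the controls and 487 and 518 after injury, a 5.76-fold rise (adjusted p = 8.78e-08). Psat1, of serine synthesis, had 14.7, 27.1 and 31.9 in the controls and 204 and 129 after injury, a 4.77-fold rise. Mthfd2, of the mitochondrial folate pathway, rose 3.39-fold and Tkt, of the pentose phosphate pathway, 4.12-fold. Psat1, Mthfd2 and Tkt were not called with all 25 arrays in the fit. Each of these 4 genes had both injured arrays above every control, but so did all 208 genes that rose and 14.2% of all probe sets. The limma test between the injuries found Psat1 higher after freezing (difference 1.62, adjusted p = 0.00259).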
